A study of Mus musculus with 32 samples.

Results

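At E18.5, shortly before birth, 1850 autosomal regions of the oocyte genome were listed as peaks of H3K27me3 and had no counterpart in the wild-type (WT) lists of the later stages. They were chosen by their width and by overlap, as E18.5 peaks at least 3 kb wide that no WT H3K27me3 peak of postnatal day 1 (P1), day 6 (P6, non-growing) or day 7 (P7, growing) overlapped by even 1 bp. They made up 4.17% of the 44414 autosomal E18.5 regions of that width, and the E18.5 list held 78849 autosomal peaks of any width. The choice rests on the 4 WT H3K27me3 lists, so the absence of the regions from the later ones is their definition and not a result. The regions are called E18.5-only below, which refers to these lists and not to the chromatin itself.

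The study profiled 2 histone marks in mouse oocytes from the ovary by CUT&Tag, an assay in which an antibody directs a transposase to cut and tag DNA near a mark. Each of 16 groups had 2 samples and 1 deposited peak list. WT oocytes were profiled for H3K27me3 and H2AK119ub at all 4 stages. The PRC1ctrl group was labelled Ring1-/-; Rnf2F/+; Ddx4-Cre and the PRC1cKO group Ring1-/-; Ring1F/-; Ddx4-Cre, both profiled for H3K27me3 at P6 and P7. Ring1 was thus lacking in both of these groups, and the label leaves unsettled which gene was floxed in PRC1cKO. The PRC2ctrl group was EedF/+; Ddx4-Cre and the PRC2cKO group EedF/-; Ddx4-Cre, profiled for both marks in P6 non-growing oocytes. Ddx4-Cre is a recombinase expressed in germ cells, and the PRC1 and PRC2 controls carried it too.

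Polycomb complexes keep genes silent. Polycomb repressive complex 2 (PRC2), which needs its subunit EED, places the methyl mark H3K27me3 on histone H3, while complex 1 (PRC1), with RING1 or RNF2 as its catalytic subunit, attaches ubiquitin to histone H2A, which gives H2AK119ub. Each complex can be recruited by the other's mark, and CpG-rich promoters are the best known sites where both meet. In mouse oocytes H3K27me3 also spreads over wide stretches away from genes as the oocyte matures.

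Annotated gene starts inside E18.5-only regions were of different kinds, and 6 of them are shown here because they span the range from CpG-rich to CpG-free. Each is the 300 bases from 250 before to 50 after a RefSeq start in build GRCm38.p6, written 5′ to 3′ on the gene's strand, with every CG in capitals. These 6 were chosen after their values were seen.
Zfp651, chr9:121759783-121760082, plus strand: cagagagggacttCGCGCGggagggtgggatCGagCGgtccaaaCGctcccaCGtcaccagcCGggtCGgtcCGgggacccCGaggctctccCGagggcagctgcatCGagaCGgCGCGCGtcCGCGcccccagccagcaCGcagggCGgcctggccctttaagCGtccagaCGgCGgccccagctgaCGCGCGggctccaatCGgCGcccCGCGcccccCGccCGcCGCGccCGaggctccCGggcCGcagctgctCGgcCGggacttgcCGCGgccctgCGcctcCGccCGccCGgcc
Kcnh1, chr1:192190527-192190826, plus strand: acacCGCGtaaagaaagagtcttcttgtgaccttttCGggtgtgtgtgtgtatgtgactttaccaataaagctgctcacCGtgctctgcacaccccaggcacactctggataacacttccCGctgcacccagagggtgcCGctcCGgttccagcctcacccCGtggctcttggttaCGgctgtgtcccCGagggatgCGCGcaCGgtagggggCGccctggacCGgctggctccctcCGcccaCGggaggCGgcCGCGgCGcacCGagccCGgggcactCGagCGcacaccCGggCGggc
Ripor2, chr13:24638398-24638697, plus strand: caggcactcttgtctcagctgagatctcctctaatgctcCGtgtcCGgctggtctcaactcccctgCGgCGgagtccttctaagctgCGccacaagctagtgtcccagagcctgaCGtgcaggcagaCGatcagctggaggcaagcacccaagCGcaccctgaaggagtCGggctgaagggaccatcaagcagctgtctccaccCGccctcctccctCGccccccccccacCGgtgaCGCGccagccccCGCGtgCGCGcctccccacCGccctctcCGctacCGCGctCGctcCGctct
Gja10, chr4:32602333-32602632, minus strand: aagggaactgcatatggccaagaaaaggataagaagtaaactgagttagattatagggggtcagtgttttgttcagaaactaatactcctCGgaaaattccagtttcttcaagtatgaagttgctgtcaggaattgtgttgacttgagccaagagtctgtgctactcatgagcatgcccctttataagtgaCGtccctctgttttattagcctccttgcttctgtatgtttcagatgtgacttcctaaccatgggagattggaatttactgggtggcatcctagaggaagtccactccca
Btg4, chr9:51115751-51116050, plus strand: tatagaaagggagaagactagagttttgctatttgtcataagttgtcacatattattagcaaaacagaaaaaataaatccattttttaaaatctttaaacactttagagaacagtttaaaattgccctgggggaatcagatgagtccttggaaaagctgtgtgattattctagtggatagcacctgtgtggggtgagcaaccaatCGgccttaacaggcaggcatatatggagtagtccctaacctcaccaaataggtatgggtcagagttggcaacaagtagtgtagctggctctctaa
Olfr772, chr10:129175005-129175304, minus strand: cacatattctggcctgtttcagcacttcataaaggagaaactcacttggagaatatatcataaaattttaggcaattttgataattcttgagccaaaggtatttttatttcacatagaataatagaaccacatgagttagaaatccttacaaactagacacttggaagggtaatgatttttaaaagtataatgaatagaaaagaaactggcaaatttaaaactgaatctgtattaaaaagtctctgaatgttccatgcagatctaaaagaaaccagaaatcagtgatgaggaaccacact
Zfp651, a zinc finger gene, held 46 CG and a GC content of 78.7%, and its 4.03 kb region was covered by H2AK119ub from end to end at E18.5. Kcnh1, which encodes a voltage-gated potassium channel, held 27 CG, and Ripor2 held 24. Gja10, which encodes a gap junction connexin, held 2 CG, and Btg4, an oocyte gene that drives the decay of maternal mRNA, held 1. Olfr772, an olfactory receptor gene, held none.

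The E18.5-only regions were narrow and weak among their peers. Together they covered 7.07 Mb, with a median width of 3.51 kb and a range of 3 to 13.6 kb, against a median of 5.35 kb for all E18.5 regions of at least 3 kb. Their median total signal, the authors' value summed over a peak, was 11896, against 27861.5 for all. Of the 1850, 1455 (78.6%) lay in the lowest 25% of total signal, and 2 lay in the highest 25%. Read the other way, 13.1% of the lowest 25% were E18.5-only. By width, E18.5-only regions made up 10.5% of the regions of 3 to 4 kb, 4.24% of those of 4 to 5 kb and 0.771% of those of at least 5 kb.

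**Figure D1:**
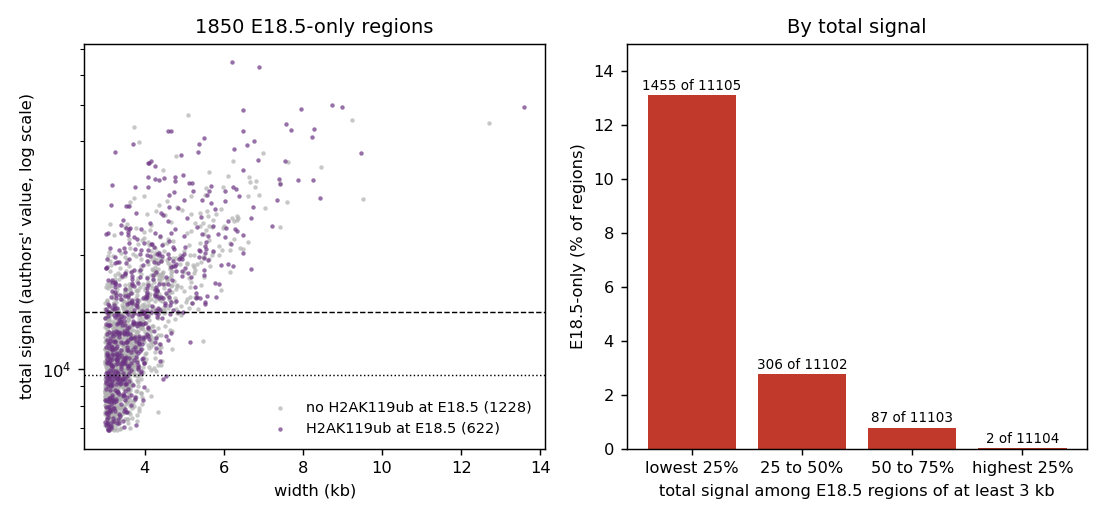
Left, width (kb) against total signal (authors' value, log axis) for the 1850 E18.5-only regions, coloured by H2AK119ub at E18.5; the dashed and dotted lines mark the lowest total signal in the P7 and P1 H3K27me3 lists (14139 and 9660). Right, bars give the share of E18.5-only regions among all E18.5 regions of at least 3 kb in each 25% of total signal, which went from 13.1% in the lowest to 2 regions of 11104 in the highest.

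How a region came to be missing from a later list touches the level at which that list began. The lowest total signal in the P7 H3K27me3 list was 14139, and 1203 E18.5-only regions (65.0%) lay below it, against 15.7% of all E18.5 regions. For P1 the lowest value was 9660, with 477 regions (25.8%) below it against 3.65% of all, and for P6 it was 9546, with 456 (24.6%) against 3.43%. Whether signals are on 1 scale between lists is not given, so loss of the mark and passage under a list's lowest signal cannot be told apart. Many regions also had a later neighbour: 307 lay within 1 kb of a later WT peak and 978 within 5 kb. Requiring no later peak within 5 kb left 872 regions. At the width limit, 255 regions without a later peak fell short of 3 kb by at most 100 bp, with a median total signal of 9424, and the 279 at or less than 100 bp above it had 9419.

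H2AK119ub, which the choice of regions did not use, was listed at fewer E18.5-only regions than at E18.5 regions in general. At E18.5 it overlapped 622 of 1850 (33.6%, exact Clopper-Pearson 95% interval 31.5 to 35.8%), against 64.3% of all E18.5 regions. At P1 the number was 451 (24.4%, interval 22.4 to 26.4%) against 65.3%, and at P6 it was 407 (22.0%, interval 20.1 to 24.0%) against 66.6%. In growing oocytes at P7 it was 174 (9.41%, interval 8.11 to 10.8%) against 47.5%. In all 4 WT lists the share at E18.5-only regions was thus below the background. E18.5 regions also listed at P1, but not at P6 or P7, were below it too. Their shares were 39.5% at E18.5, 33.5% at P1, 28.2% at P6 and 13.6% at P7. A low share was thus not particular to the E18.5-only set. These intervals cover counting error only, neighbouring regions are not independent, and with 1 list per group there is no replicate check and no p-value for any comparison here.

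The lower share was also seen at matched signal, except among the stronger regions. In the lowest 25% of total signal, H2AK119ub at E18.5 overlapped 29.0% of the 1455 E18.5-only regions and 46.5% of the 9650 others. From 25 to 50% the shares were 45.1% of 306 and 52.0% of 10796, and the interval of the former (39.4 to 50.9%) ended just below the latter. From 50 to 75% they were 69.0% of 87 and 68.7% of 11016, a difference within the interval of 58.1 to 78.5%. At P6 the gap was present in all 3 of these classes, with 21.7% against 51.2%, 21.9% against 55.6% and 26.4% against 71.2%. The gap between the 2 kinds of region was thus not detectable at E18.5 among the 87 stronger ones, and was present there at P6. The choice left out every region with a WT H3K27me3 peak at P6, and the 2 marks went together. H2AK119ub at P6 overlapped 84.1% of the regions listed at all later WT stages and 66.6% of all E18.5 regions. An effect of the choice on the later H2AK119ub shares was not tested.

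Followed over time, most E18.5-only regions carried no listed H2AK119ub at all. In 1053 (56.9%) none of the 4 WT H2AK119ub lists had a peak, against 21.3% of all E18.5 regions, and 79 (4.27%) were covered in all 4, against 39.7%. In 155 (8.38%, against 2.06% of all) H2AK119ub was listed at E18.5 and in no later WT list. Of the 622 regions that had H2AK119ub at E18.5, 58.8% had it again at P1, 54.0% at P6 and 20.6% at P7. For all E18.5 regions with H2AK119ub at that stage the shares were 89.7%, 90.8% and 66.2%. Covered length of the H2AK119ub lists differed between stages, from 244.2 Mb at P7 to 728.3 Mb at P6. With all 6 H2AK119ub lists trimmed to 1 covered length by total signal, the share of E18.5-only regions was 7.62% at E18.5, 4.86% at P1, 2.92% at P6 and 9.41% at P7. Over all E18.5 regions the trimmed shares were 20.0%, 23.5%, 20.9% and 47.5%. The P7 list, the shortest, was left whole by the trimming, while the other lists lost their peaks of lowest total signal. The order of the stages thus turned, and P7, with its share unchanged at 9.41%, went from the lowest to the highest. E18.5-only regions were below all regions at each stage either way.

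**Figure D2:**
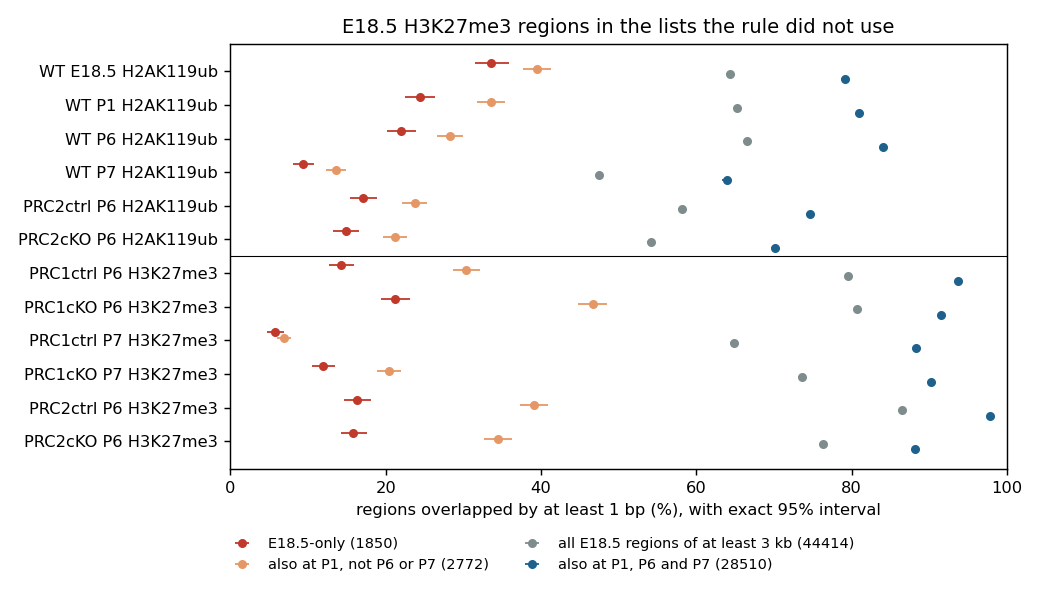
Share of regions (%) overlapped by at least 1 bp in each list that the choice did not use, for E18.5-only regions, regions also listed at P1 but not P6 or P7, all E18.5 regions of at least 3 kb and regions listed at all later WT stages; bars are exact 95% intervals for counting error. E18.5-only regions have the lowest share in all 12 lists, for example 33.6% against 64.3% of all regions for H2AK119ub at E18.5. Low H3K27me3 shares can follow from the choice, which left out regions with a WT peak of this mark at P6 or P7.

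None of the 6 control and knockout lists of H3K27me3 was used in the choice. The choice did leave out every region with a WT peak of this mark at P6 or P7, the stages of these lists. Low shares here can therefore follow from the choice itself and are no independent check. Of all E18.5 regions, the background here, 64.2% had a peak in all later WT lists. In the PRC1ctrl list at P6, 263 E18.5-only regions (14.2%, interval 12.7 to 15.9%) had a peak, against 79.5% of all E18.5 regions. In PRC2ctrl at P6 the number was 302 (16.3%, interval 14.7 to 18.1%) against 86.5%. In PRC1ctrl at P7 it was 107 (5.78%, interval 4.76 to 6.95%) against 64.8%. In none of the 3 control lists was a peak found at 1345 regions (72.7%), against 8.30% of all E18.5 regions. In all 3 a peak was found at 17 (0.919%), against 58.3% of all. The PRC1ctrl and PRC2ctrl lists of P6 shared 112 regions, which is 42.6% of the former's 263 and 37.1% of the latter's 302. The same sharing over all E18.5 regions was not counted.

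The PRC1cKO lists held more of the regions than their controls. At P6, 393 E18.5-only regions (21.2%, interval 19.4 to 23.2%) had an H3K27me3 peak in PRC1cKO, against 80.7% of all E18.5 regions. That is 1.49 times the share in PRC1ctrl, where the same ratio over all E18.5 regions was 1.01. Peaks were listed in PRC1cKO and not in PRC1ctrl at 226 regions, and the opposite held at 96. Of all E18.5 regions, 3477 were listed in PRC1cKO only and 2955 in PRC1ctrl only. At P7 the PRC1cKO number was 221 (11.9%, interval 10.5 to 13.5%), against 73.6% of all, a ratio to control of 2.07 compared with 1.13 over all regions. Here 180 regions were listed in the knockout only and 66 in the control only, against 6864 and 2991 of all E18.5 regions. The 2772 regions also listed at P1, but not at P6 or P7, had ratios of 1.54 at P6 and 2.97 at P7. A ratio above that of all regions was thus not particular to the E18.5-only set. Both sets were chosen for absence from the WT P6 and P7 lists. An effect of that choice on the ratios cannot be told apart from one of the knockout.

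The ratio in PRC1 at P7 turned with the choice of regions. Without the WT P7 list in that choice it was 0.933, and with all 6 lists trimmed to 1 covered length it was 3.68. After that trimming the shares were 7.35% in PRC1cKO and 2.00% in PRC1ctrl, against 67.5% and 53.7% of all E18.5 regions. At P6 the ratio lay between 1.28 and 1.67 in the 14 alternatives run.

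In PRC2cKO at P6, 293 E18.5-only regions (15.8%, interval 14.2 to 17.6%) had an H3K27me3 peak, against 76.3% of all E18.5 regions. The ratio to PRC2ctrl was 0.970, with 172 regions listed in the knockout only and 181 in the control only, and 121 in both. Over all E18.5 regions the ratio was 0.882, with 1387 listed in the knockout only, 5929 in the control only and 32496 in both. With the lists trimmed to 1 covered length, however, the shares were 15.8% in PRC2cKO and 3.46% in PRC2ctrl, a ratio of 4.58. Trimmed shares over all E18.5 regions were 76.3% and 64.5%, so the order turned there too. The PRC2cKO list, at 428.6 Mb the shortest of the H3K27me3 lists compared, was left whole by the trimming. The direction of this comparison thus depended on how much of each list was used. H2AK119ub in the same oocytes overlapped 316 E18.5-only regions in PRC2ctrl (17.1%, against 58.1% of all) and 275 in PRC2cKO (14.9%, against 54.1%). Trimmed in the same way, these shares were 3.62% in PRC2ctrl (24.3% of all) and 4.22% in PRC2cKO (29.4% of all), so this direction turned as well.

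Regions with and without H2AK119ub at E18.5 differed in these lists. The 1228 regions without it were listed in PRC1cKO at P6 in 24.8% of cases and in PRC1ctrl in 15.4%, while the 622 with it gave 14.1% and 11.9%. At P7 the shares in PRC1cKO and PRC1ctrl were 13.9% and 6.68% without H2AK119ub and 8.04% and 4.02% with it. In PRC2cKO at P6 they were 21.5% without and 4.66% with it, and in PRC2ctrl 19.6% and 9.81%. Over all E18.5 regions the order was the opposite in all 6 lists. Without and with H2AK119ub at E18.5, PRC1ctrl at P6 held 65.6% and 87.2% of them, and PRC1cKO 72.3% and 85.3%. At P7 the shares were 61.5% and 80.2% in PRC1cKO and 37.8% and 79.8% in PRC1ctrl. In PRC2cKO at P6 they were 71.7% and 78.9%, and in PRC2ctrl 78.1% and 91.2%. Among all regions without H2AK119ub, the PRC1cKO share at P7 was thus also above that of PRC1ctrl.

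**Figure D3:**
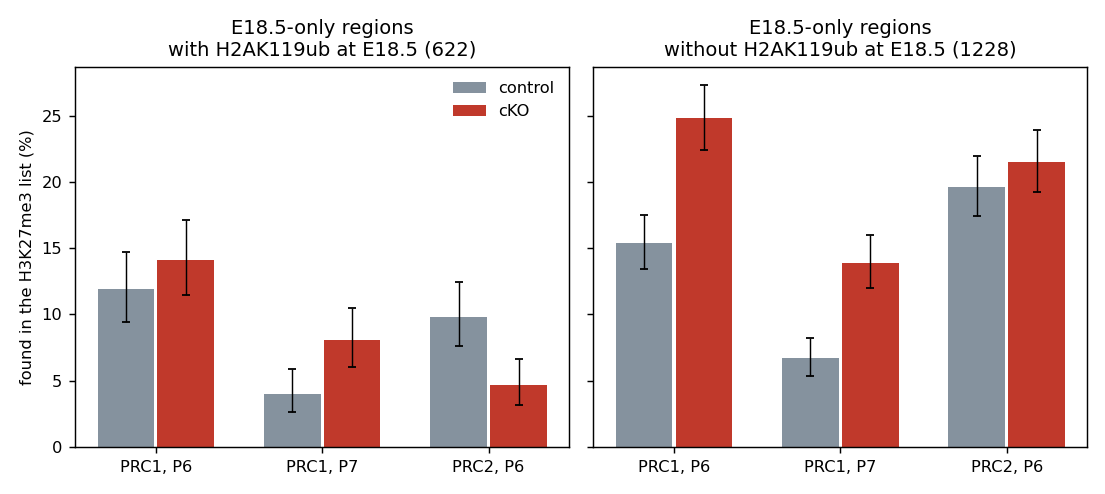
Share of E18.5-only regions (%) with an H3K27me3 peak in control (grey) and cKO (red) lists, for the 622 regions with H2AK119ub at E18.5 (left) and the 1228 without (right); bars are exact 95% intervals for counting error. Regions without H2AK119ub were listed more often in all 6 lists, and in PRC1cKO at P6 they reached 24.8% against 15.4% in the control.

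In none of the 6 control and knockout lists was a peak found at 1068 E18.5-only regions (57.7%), against 5.07% of all E18.5 regions. At the other end, 10 regions (0.541%) were listed in all 6, against 47.9% of all E18.5 regions. The 10 included regions in the bodies of Ghr, the growth hormone receptor gene, and Negr1, a neuronal adhesion gene. Others of the 10, near Gm2897, Gm3173 and LOC108168187, lay on chromosome 14. The region near Gm3173 belongs to the densest window described below, where the placement of reads is uncertain. The Negr1 region, 3.05 kb wide, was covered over 3.05 kb in PRC1ctrl, PRC1cKO and PRC2cKO and over 2.82 kb in PRC2ctrl at P6. A 3.91 kb region 348 kb from Ccng1, its nearest gene, was covered from end to end in 5 of the 6 lists and over 2.86 kb in PRC1ctrl at P7. Absence from the WT lists therefore did not carry over to the other lists at these places.

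E18.5-only regions were at gene ends less often than E18.5 regions in general, which also held for regions listed at P1 but not later. At most 1 kb from either end of a protein-coding gene were 86 (4.65%, interval 3.73 to 5.71%), against 15.6% of all E18.5 regions. In gene bodies only were 549 (29.7%, against 25.2%), and between genes 1215 (65.7%, interval 63.5 to 67.8%, against 59.2%). More than 100 kb from any such gene were 33.5%, against 24.0%, and the median distance of those between genes was 105 kb, against 67.3 kb. Position and H2AK119ub went together, in E18.5-only regions as in all. Of E18.5-only regions with H2AK119ub at E18.5, 8.04% were at a gene end and 41.3% in a body only. Of those without it, 2.93% and 23.8% were. Over all E18.5 regions these shares were 21.7% and 27.5% with it, and 4.58% and 21.2% without. Between genes were 50.6% of E18.5-only and 50.8% of all regions with H2AK119ub. Without it these shares were 73.3% and 74.3%, so within each class they were close. With gene ends widened to 5 kb, 11.8% of E18.5-only regions and 22.3% of all were at an end. Of the regions also listed at P1, but not at P6 or P7, 7.65% were at a gene end and 30.4% in a body only. Another 61.9% of them were between genes, and 29.5% were more than 100 kb from any such gene. Position was not compared at matched width, and E18.5-only regions were narrower than all.

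In total 479 of 20665 autosomal protein-coding genes (2.32%) were touched by an E18.5-only region, 88 of them at an end. Touched genes were long, with a median of 134 kb against 17.5 kb for all, so a count of touched genes also reflects length. For that reason the counts below are followed by the share of a list's own E18.5 regions that were E18.5-only, which over all protein-coding genes was 3.50% (635 of 18130).

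Genes of oocyte growth and maternal effect, which supply the egg, were touched in 6 of 50 cases. Of their 46 E18.5 regions, 6 were E18.5-only (13.0%, interval 4.94 to 26.3%), an interval that begins above 3.50% but rests on 6 regions. Oosp2 and Oosp1, which encode oocyte-secreted proteins, had regions of 4.00 and 3.62 kb in their bodies, both without H2AK119ub in any WT list. The Oosp1 region was listed again in PRC1cKO at P6, over 3.62 kb, and in PRC2ctrl, over 3.55 kb. Nlrp2, a gene of the oocyte's cytoplasmic NLRP proteins, had 1 region of 3.52 kb, listed again in PRC1cKO at P6 over 2.16 kb. The Btg4 region, 3.45 kb wide with a total signal of 8010, had no peak of either mark in any other list. Gja4, the gap junction gene of the oocyte, had 1 region of 3.07 kb with H2AK119ub from end to end at E18.5, P1 and P6 and over 0.116 kb at P7. Lhx8, an oocyte transcription factor gene, had 1 region of 3.28 kb, 0.214 kb outside the gene's end.

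**Figure D4:**
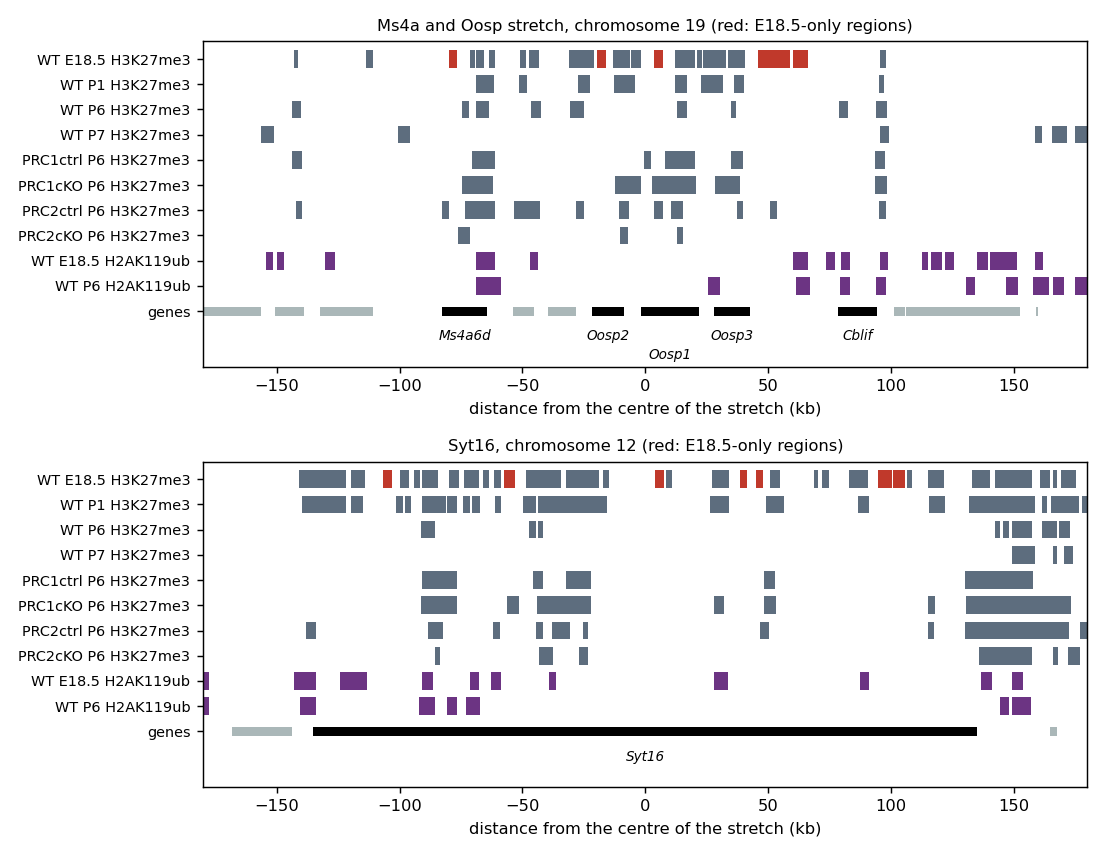
Peaks in 10 of the lists (rows) over 2 stretches, by distance (kb) from the centre of the Oosp2 and Oosp1 genes (top) or of Syt16 (bottom); red marks E18.5-only regions, grey other H3K27me3 peaks, purple H2AK119ub and black the genes named. At the Oosp genes 5 E18.5-only regions stand beside other E18.5 peaks that later lists keep in part, and the 7 in Syt16 lie between peaks of the P1 list.

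The Oosp genes lay in a stretch of chromosome 19 with 6 E18.5-only regions within 500 kb, a stretch named after its values were seen. Of these, a 12.7 kb region (chromosome 19, 11715207 to 11727920) 3.35 kb from Oosp3 was the second widest of all 1850, with a total signal of 44614 and no WT H2AK119ub. The next one, of 6.195 kb (11729198 to 11735392) and 12.2 kb from Cblif, had the highest total signal of all, 64696. It was covered by H2AK119ub over 6.15 kb at E18.5, 0 at P1, 4.88 kb at P6 and 0 at P7. Neighbours less than 2 kb apart thus differed in H2AK119ub while both were missing from the later H3K27me3 lists.

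Genes of synaptic adhesion and axon guidance, long genes of neurons, were touched in 27 of 83 cases, and 5.07% of their 967 E18.5 regions were E18.5-only (interval 3.77 to 6.64%). Csmd1 had 4 regions over 13.7 kb, Robo1, an axon guidance receptor gene, 3 over 13.3 kb, and Ptprt, a receptor phosphatase gene, 4 over 13.0 kb. In Robo1 none of the 3 had H2AK119ub in any WT list, whereas in Ptprt all 4 had some at E18.5, from 0.145 to 3.56 kb. Neuronal ion channels and receptors were touched in 14 of 78 cases, with 4.33% of 577 regions (interval 2.82 to 6.33%). Kcnh1 had 3 regions over 13.3 kb, all covered by H2AK119ub from end to end at E18.5 and none of them listed in a control or knockout H3K27me3 list. Kcnma1, a calcium-activated potassium channel gene, had 2 over 12.1 kb. Kcnip4, which encodes a protein that binds potassium channels, had 3 over 10.1 kb, none with H2AK119ub in any WT list, and Grm5, a glutamate receptor gene, had 3 over 9.91 kb.

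Developmental transcription factors, the classical Polycomb targets, were touched in 2 of 106 cases, Tshz1 and Foxp2, and 2 of their 215 E18.5 regions were E18.5-only (0.930%, interval 0.113 to 3.32%). The Tshz1 region had H2AK119ub at all 4 WT stages, and the Foxp2 region at none. None of the 39 Hox genes was touched, but these had only 6 E18.5 regions in all (0 of 6, interval 0 to 45.9%). Developmental signalling gave 2 of 56 genes, Fgf14 with 3 regions and Fgf12 with 1, which is 3.67% of 109 regions (interval 1.01 to 9.13%). Of the Polycomb and partner genes 2 of 43 were touched, Auts2 with 2 regions and Cbx7, a PRC1 subunit gene, with 1 of 6.06 kb that was covered by H2AK119ub over 5.86 kb at E18.5, 3.76 kb at P1 and 4.74 kb at P6. Together these were 3 of the 23 E18.5 regions of that list (13.0%, interval 2.78 to 33.6%), an interval that holds 3.50%.

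Germline identity and genome defence gave 1 of 35 genes, the piRNA pathway gene Tdrd9, with 3 of the 15 E18.5 regions of that list (20.0%, interval 4.33 to 48.1%). This interval begins above 3.50% but rests on 3 neighbouring regions of 1 gene, which are not independent. Cell cycle inhibitors and apoptosis gave 1 of 28, Trp63, whose product guards oocyte quality, with a region of 3.603 kb covered from end to end by H2AK119ub at E18.5 and in no later WT list, which was 1 of the 13 regions of that list (7.69%, interval 0.195 to 36.03%). Of the H3K27me3-dependent imprinted genes 1 of 25 was touched, Chd7, with 1 of 66 regions (1.52%, interval 0.0384 to 8.16%). Of the canonical imprinted genes 1 of 37 was touched, Snrpn, with 1 of 47 regions (2.13%, interval 0.0539 to 11.3%). No gene was touched among 43 of meiotic prophase (0 of 18 regions, interval 0 to 18.53%), 40 of spermatogenesis (0 of 49, interval 0 to 7.25%) or 26 markers of blood and endothelium (0 of 45, interval 0 to 7.87%). The intervals of these 3 lists hold 3.50%.

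The same E18.5 list was set against markers of the cells an ovary holds. A peak of any width lay near an end of 4 of 12 oocyte defining markers, 31 of 36 granulosa and ovarian stroma markers and 20 of 26 blood and endothelial markers. The oocyte markers with one were Sohlh1, Lhx8, Stag3 and Gdf9, and those without were Sohlh2, Kit, Nobox, Figla, Sycp3, Ddx4, Dazl and Taf4b. Of the granulosa and stroma markers, Col3a1, Hsd3b1, Star, Lum and Inhba had none near an end. Of the blood and endothelial markers, Emcn, Tek, Klf1, Cd68, Pecam1 and Ms4a1 had none there. The share of all protein-coding genes with a peak of any width near an end was not counted. These marker counts can therefore not be called high or low. By a different measure, 8229 of 20665 protein-coding genes had an E18.5 region of at least 3 kb in the body or at most 1 kb from it. E18.5-only regions touched 1 oocyte marker, Lhx8, and 2 of the granulosa and stroma markers, Esr1 and Hsd3b1, in their bodies. These were 1 of the 3 E18.5 regions of the oocyte markers (33.3%, interval 0.840 to 90.6%). For granulosa and stroma markers they were 2 of 84 (2.38%, interval 0.290 to 8.34%). Both intervals hold the 3.50% over all protein-coding genes. Any part of other ovarian cells in the E18.5 list was not tested.

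Among gene families, 5 of 1100 olfactory receptor genes were touched (Olfr376, Olfr772, Olfr212, Olfr121 and Olfr561), 4 of 352 vomeronasal receptor genes (Vmn1r4, Vmn2r27, Vmn2r82 and Vmn1r18) and 1 of 56 formyl peptide, trace amine and taste receptor genes (Tas2r114). Of the E18.5 regions at these genes, E18.5-only ones were 2.58% of 194, 6.67% of 60 and 1 of 10. Protocadherins and cadherins outside the clusters gave 6 of 33 genes but 8 of 225 regions (3.56%), and solute carriers 9 of 324 genes and 12 of 408 regions (2.94%). Cytochrome P450 genes gave 4 of 92 genes and 4 of 88 regions (4.55%), Zfp zinc finger genes 4 of 360 genes and 6 of 152 regions (3.95%), and keratins 1 of 104 genes (Krt78) and 1 of 54 regions (1.85%). The exact intervals of all 8 of these shares hold 3.50%. None was touched among 55 clustered protocadherins, 70 defensins, 61 C-type lectin and killer cell receptors, 62 serpins, 55 interleukins and interferons, 77 cytosolic ribosomal proteins and 62 replication-dependent histones. These zeros rest on few regions: the families had 27, 26, 33, 39, 39, 1 and 0 E18.5 regions in that order, and the intervals of all that had any reach at least 9.03%.

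Some genes held several E18.5-only regions. Syt1, a calcium sensor gene of synaptic vesicles, had 7 over 31.4 kb, out of 25 E18.5 regions in its body. Of the 7, 2 had H2AK119ub at E18.5, and 2 were listed in a control or knockout H3K27me3 list. Syt16 had 7 of 20, over 28.2 kb, none with H2AK119ub in any WT list and 2 in a control or knockout list. Fstl4 had 6 of 26, of which 3 had H2AK119ub at E18.5. Tiam1 and Kalrn, genes of activators of small GTPases, had 5 each, and all 10 of these had H2AK119ub at E18.5. Nrg1, a growth factor gene, had 5 with no H2AK119ub in any WT list. Galnt17 also had 5, of which 3 had H2AK119ub at E18.5, over 4.10, 0.434 and 0.161 kb. Adam12, a metalloprotease gene, had 4, all covered from end to end at E18.5, and Sugct had 4 without any.

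Most E18.5-only regions stood alone. Of 1366 windows of 500 kb that held one, 1028 held a single one and 91 held 3 or more. The densest window (chromosome 14, 4500001 to 5000000) had 9 of its 16 E18.5 regions in the set, at Gm3239, Gm26650, Gm3264 and Gm10410. Gene families there have near-identical copies nearby, so the placement of reads among copies is uncertain. All 9 were listed in at least 1 control or knockout H3K27me3 list. A window of chromosome 5 at Sdk1 and Foxk1 held 7, all with H2AK119ub at E18.5, and 1 of them was listed in a control or knockout list. One of chromosome 13 at Pde8b and Zbed3 held 6, again all with H2AK119ub at E18.5. By chromosome the share of E18.5 regions that were E18.5-only ran from 2.85% on chromosome 17 to 6.12% on chromosome 19.

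The widest regions were of both kinds. The widest, 13.6 kb (chromosome 11, 114431335 to 114444925), lay 223 kb from Rpl38 and was covered by H2AK119ub over 11.6 kb at E18.5 and 0 at P1. A 9.46 kb region 26.8 kb from Mrps6 was covered over its whole length at E18.5, over 6.81 kb at P1 and over 7.96 kb at P6. A region of 9.25 kb that lay 3.16 kb from Rgs1 and one of 9.51 kb that lay 122 kb from Ice1, its nearest gene, had none at E18.5. By total signal, the second highest was a 6.89 kb region at an annotated start of Dysf, a muscle membrane repair gene, with 62905 and H2AK119ub over 6.38 kb at E18.5, 0 at P1 and P6 and 1.49 kb at P7.

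Annotated starts inside E18.5-only regions numbered 43, of 39 genes, and 2.11% of the regions held one, against 8.97% of all E18.5 regions. A start was called CpG-rich when its 300 bases had a GC content of at least 55% and a ratio of observed to expected CG of at least 0.6. This applied to 16 of the 43 (37.2%, interval 23.0 to 53.3%), against 30.2% of starts in all E18.5 regions and 42.2% of all 20085 annotated starts. The dinucleotide CG, which reads the same on both strands, was absent from 6 of the 43 (14.0%), from 2.94% of starts in all E18.5 regions and from 4.40% of all starts.

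CpG-rich starts sat in regions with H2AK119ub. All 16, of 13 genes, did at E18.5 (interval 79.4 to 100%), and 4 of them are starts of Ing1 in a single region. The numbers were 15 at P1, 15 at P6 and 9 at P7. Of the 27 other starts 16 did at E18.5 (59.3%, interval 38.8 to 77.6%), 8 at P1, 10 at P6 and 5 at P7. Over all E18.5 regions the shares at E18.5 were 99.9% of CpG-rich starts and 90.3% of the others. At P7 they were 94.9% and 80.8%, against 56.3% (interval 29.9 to 80.2%) of the CpG-rich starts and 5 of the 27 others (interval 6.30 to 38.1%) at E18.5-only regions. Zfp651 kept H2AK119ub over 4.03 kb at P1 and P6 and over 1.61 kb at P7. Kcnh1 had it over 4.30 kb at E18.5 and 4.23 kb at P1, and 0 at P6 and P7. Ripor2, whose region was found in 4 of the 6 control and knockout H3K27me3 lists, had it over 4.51, 2.61, 4.18 and 1.42 kb at E18.5, P1, P6 and P7. The regions of Gja10, Btg4 and Olfr772 had none at any WT stage.

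**Figure D5:**
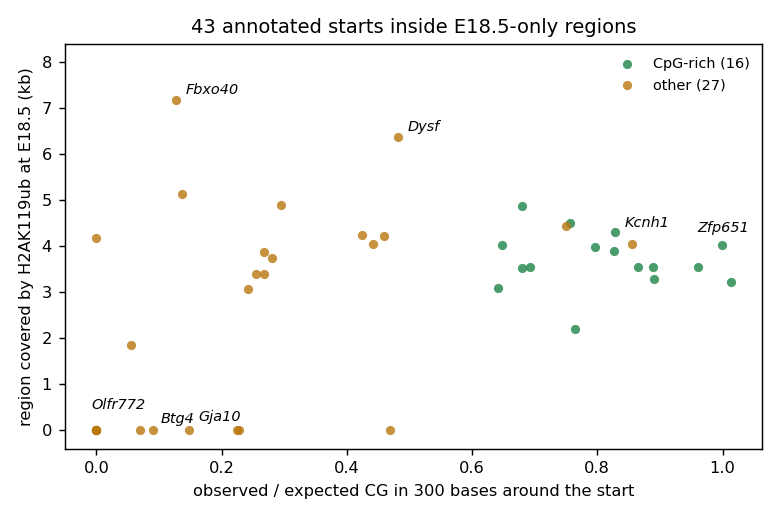
Ratio of observed to expected CG in the 300 bases around each of the 43 annotated starts, against the length (kb) of its E18.5-only region that H2AK119ub covered at E18.5; green points are the 16 CpG-rich starts and brown points the 27 others. Every CpG-rich start lies above 2 kb, whereas 11 of the others lie at 0, among them Btg4, Gja10 and Olfr772.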

How the data were processed

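CUT&Tag of H3K27me3 and H2AK119ub was run on 32 samples in 16 groups of 2, with Drosophila S2 cells as spike-in (for example 2000 per 1000 oocytes) and reads of 150 bp, per the labels' protocols. Tools named in the submitters' processing notes, with no roles, are Bowtie2, SAMtools, deepTools, Picard 3.0.0 and Trim Galore 0.6.10. The builds they name are GRCm38, mm10 and dm6. For the peak caller, its threshold, spike-in scaling and the joining of samples, the entry is "not given in the sources used here". Every group has a single deposited peak list with signal in whole numbers, of which the total per peak (column 4, judged from the values) was used and the highest value was not. Read depth is unknown.

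Overlap was 1 bp. Shares carry exact Clopper-Pearson 95% intervals (SciPy 1.17.1). Genes and starts came from RefSeq, GRCm38.p6, without exon positions, so gene bodies were not divided into exons and introns. Overlap, trimming and gene assignment were tested on simulated data. Members, lists and comparisons were chosen with earlier results of these data known. By rule, named genes were those of the gene lists that a region touched (values for the 2 to 4 with the longest covered length), those at the 20 widest and the 10 strongest regions, the 10 genes with most regions and those of the 5 densest 500 kb windows. Other genes were named after their values were seen. Alternatives changed the overlap, width, signal, covered length, later lists and gene ends.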

Additional observations from a re-analysis of the deposited data

How the results depend on the processing

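Over all results and alternatives, 146 values stayed close (within the counting interval of a share, or 1.5 times of a count or ratio), 142 moved further and 5 turned direction, the latter being H3K27me3 knockout to control ratios that crossed 1. The number of regions depended strongly on the rule, and the values that moved follow, with their lists in brackets. The causes were not tested. With no later peak allowed within 1 kb, H3K27me3 shares were 18.4% (PRC1cKO P6), 12.6% (PRC1ctrl P6), 14.6% (PRC2ctrl P6). Within 5 kb, the regions numbered 872. H2AK119ub shares were 19.3% (WT P6). H3K27me3 shares were 18.3% (PRC1cKO P6), 8.72% (PRC1cKO P7), 11.0% (PRC1ctrl P6), 4.47% (PRC1ctrl P7), 13.1% (PRC2cKO P6), 12.3% (PRC2ctrl P6). Positions were 31.9% (gene body only). The knockout to control ratio was 1.07 (PRC2 P6). With a width of at least 2000 bp, the regions numbered 5909. H2AK119ub shares were 10.6% (PRC2cKO P6), 11.9% (PRC2ctrl P6), 22.3% (WT E18.5), 17.9% (WT P1), 15.6% (WT P6), 7.53% (WT P7). H3K27me3 shares were 13.7% (PRC1cKO P7). Positions were 26.4% (gene body only), 69.5% (between genes). The knockout to control ratio was 1.09 (PRC2 P6). At 5000 bp, the regions numbered 186. H2AK119ub shares were 25.8% (PRC2cKO P6), 27.4% (PRC2ctrl P6), 51.1% (WT E18.5), 32.3% (WT P1), 32.3% (WT P6), 16.1% (WT P7). H3K27me3 shares were 31.2% (PRC1cKO P6), 18.8% (PRC1ctrl P6), 3.23% (PRC1ctrl P7), 18.3% (PRC2ctrl P6). Positions were 6.99% (gene end), 62.4% (between genes). The knockout to control ratio was 4.00 (PRC1 P7). At or above the median total signal of the E18.5 list, the regions numbered 596. H2AK119ub shares were 18.3% (PRC2cKO P6), 20.1% (PRC2ctrl P6), 46.5% (WT E18.5), 28.4% (WT P1), 25.0% (WT P6), 12.9% (WT P7). H3K27me3 shares were 25.5% (PRC1cKO P6), 16.1% (PRC1ctrl P6). The knockout to control ratio was 1.02 (PRC2 P6). With the 4 lists of the rule trimmed to equal covered length, the regions numbered 3922. H2AK119ub shares were 17.3% (PRC2cKO P6), 19.9% (PRC2ctrl P6), 27.7% (WT P1), 25.6% (WT P6), 12.7% (WT P7). H3K27me3 shares were 31.6% (PRC1cKO P6), 21.7% (PRC1cKO P7), 24.3% (PRC1ctrl P6), 14.9% (PRC1ctrl P7), 25.7% (PRC2cKO P6), 30.6% (PRC2ctrl P6). Positions were 27.4% (gene body only). Without the P1 list in the rule, the regions numbered 4622. H2AK119ub shares were 18.7% (PRC2cKO P6), 21.1% (PRC2ctrl P6), 37.1% (WT E18.5), 29.9% (WT P1), 25.7% (WT P6), 11.9% (WT P7). H3K27me3 shares were 36.5% (PRC1cKO P6), 17.0% (PRC1cKO P7), 23.9% (PRC1ctrl P6), 27.0% (PRC2cKO P6), 30.0% (PRC2ctrl P6). Positions were 6.45% (gene end), 63.4% (between genes). Without the P6 list, H2AK119ub shares were 30.5% (WT E18.5). H3K27me3 shares were 28.0% (PRC1cKO P6), 18.3% (PRC1cKO P7), 21.8% (PRC1ctrl P6), 7.93% (PRC1ctrl P7), 23.4% (PRC2cKO P6), 27.6% (PRC2ctrl P6). Without the P7 list, H2AK119ub shares were 21.4% (PRC2cKO P6), 24.6% (PRC2ctrl P6), 39.5% (WT E18.5), 31.4% (WT P1), 31.2% (WT P6), 16.1% (WT P7). H3K27me3 shares were 16.4% (PRC1cKO P7), 17.3% (PRC1ctrl P6), 17.6% (PRC1ctrl P7), 19.1% (PRC2ctrl P6). The knockout to control ratio was 0.933 (PRC1 P7). At or above the lowest total signal of the P7 list, the regions numbered 647. H2AK119ub shares were 18.1% (PRC2cKO P6), 20.1% (PRC2ctrl P6), 45.3% (WT E18.5), 27.8% (WT P1), 24.7% (WT P6), 12.8% (WT P7). H3K27me3 shares were 25.2% (PRC1cKO P6), 16.1% (PRC1ctrl P6). With 50% of a region to be covered, H2AK119ub shares were 10.5% (PRC2cKO P6), 13.7% (PRC2ctrl P6), 30.8% (WT E18.5), 21.4% (WT P1), 18.8% (WT P6), 3.41% (WT P7). H3K27me3 shares were 17.1% (PRC1cKO P6), 7.95% (PRC1cKO P7), 11.3% (PRC1ctrl P6), 3.73% (PRC1ctrl P7), 11.9% (PRC2cKO P6), 13.0% (PRC2ctrl P6). With the compared lists trimmed to equal covered length, H2AK119ub shares were 4.22% (PRC2cKO P6), 3.62% (PRC2ctrl P6), 7.62% (WT E18.5), 4.86% (WT P1), 2.92% (WT P6). H3K27me3 shares were 9.41% (PRC1cKO P6), 7.35% (PRC1cKO P7), 5.68% (PRC1ctrl P6), 2.00% (PRC1ctrl P7), 3.46% (PRC2ctrl P6). The knockout to control ratio was 3.68 (PRC1 P7), 4.58 (PRC2 P6). With 5 kb gene ends, positions were 11.8% (gene end), 26.7% (gene body only), 61.5% (between genes). Counting genes touched at an end only, the numbers were 88 for all protein-coding genes, 2 for oocyte growth and maternal effect, 1 for neuronal ion channels and receptors, 1 for vomeronasal receptors, 1 for cytochrome P450, 2 for zinc finger Zfp genes, 2 for solute carriers, and 0 for H3K27me3-dependent imprinted, Polycomb and partners, canonical imprinted, cell cycle inhibitors and apoptosis, developmental signalling, developmental transcription factors, germline identity and genome defence, granulosa and ovarian stroma markers, keratins and keratin-associated, other protocadherins and cadherins, synaptic adhesion and axon guidance. Allowing less than 10% of a region to be covered by later lists, and leaving out the densest 500 kb window, moved none of these values that far. The 2 alternatives that set the P7 lowest signal or left out the densest window were chosen after seeing the data. No paired analysis was possible because each group has 1 list and no values per sample. Read depth is unknown, so a region missing from a list was not detected there at an unknown depth, and leaving out a replicate could not be run.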
